A study of Mus musculus with 16 samples.

Results

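Medullary thymic epithelial cells (mTEC) of 2 sorted populations, mTEC-III and mTEC-II, were compared for dimethylation of histone H3 at lysine 4 (H3K4me2), over all peaks of the nuclear chromosomes and per gene. The comparison used 4 of the 16 samples: 2 H3K4me2 libraries of mTEC-III, sorted as CD45-negative, Epcam-positive and Ly6D-positive, and 2 of mTEC-II, sorted as CD45-negative, Epcam-positive and MHC class II high. All cells came from the thymus of C57BL/6 mice, with no treatment but the killing of the mice and no transgene named. The series also holds 2 H3K4me2 libraries each of mTEC-I (MHC class II low, Itgb4-positive) and mTEC-IV (L1cam-positive, Itgb4-negative, MHC class II low), which entered the fit for their spread, and 8 whole-cell extracts, which are not analysed here. The labels set no MHC class II gate for mTEC-III and no Ly6D gate for mTEC-II, so neither gate excludes cells of the other population. Nor do they tell if the replicates are of different mice, so the p-values speak of variation among these libraries, part of which may be technical.

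The medulla of the thymus displays proteins of other tissues to developing T cells. MHC class II high mTEC include the cells that make Aire, the regulator that switches on many of these tissue antigens. After the Aire stage some mTEC are known to take on features of the upper layers of the skin, with keratins, a cornified envelope and barrier lipids, and Ly6D, a small protein anchored in the outer membrane, marks such cells. H3K4me2 lies on the nucleosomes of promoters and enhancers, both in use and poised, so it maps regulatory regions rather than transcripts.

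Levels are H3K4me2 tags per 10000000 tags of a library, given for each of the 2 libraries of a population. Each gene was given the summed tags of all peaks nearest to its start site, so a peak inside one gene can count for a neighbour. A gene without a peak was not tested, and a peak could enter the merged set through a single population. Shares taken over the members of a list with a peak therefore lean toward the population where those members are high. Differences are mTEC-III minus mTEC-II on the log2(value + 1) scale, with their standard error (SE) and limma's Benjamini-Hochberg adjusted p. A gene or peak was called at an adjusted p under 0.05. Members of a gene list beyond the 4 with the largest called changes were named after their values were seen. The libraries held 7926038.5 and 8492028 tags in mTEC-III, against 15412132.5 and 13504742.5 in mTEC-II. Where no tag was counted, the limit of 3 tags corresponds to 3.78 and 3.53 per 10000000 in mTEC-III, against 1.95 and 2.22 in mTEC-II, and such floors cover counting error only.

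Of 15738 genes tested, 1680 (10.7%) were higher in mTEC-III than in mTEC-II and 1829 (11.6%) were lower. Of 29469 peaks tested, 2266 (7.69%) were higher and 2913 (9.88%) lower. On the log2 scale 271 genes rose and 462 fell by at least 1, 76 rose and 23 fell by at least 2, and 18 rose and 3 fell by at least 3. Over all genes tested the median difference was 0.06. In 40.7% of genes both mTEC-III libraries lay above both mTEC-II libraries, and in 29.3% below; for peaks these shares were 35.2% and 34.7%, so non-overlap alone was common. The counts rest on the libraries in the fit. Leaving out mTEC-I replicate 1 or 2 gave 3074 or 3068 genes higher and 2892 or 2886 lower. Leaving out mTEC-II replicate 1 or 2 gave 656 or 722 higher and 703 or 655 lower, leaving out mTEC-III replicate 1 gave 903 and 720, and leaving out mTEC-III replicate 2 gave 813 higher and 1459 lower. The split between directions also moved with the scaling: 47.9% of the called genes were higher as reported, 37.4% with equal totals inside the peaks, 35.0% with RLE size factors, 36.1% with edgeR and 36.0% with DESeq2. Rises outnumbered falls with peaks within 20 kb (1536 against 1377), with each gene's strongest peak (1427 against 1340) and in the 4 libraries alone (3181 against 2890). In bulk chromatin, fewer cells that carry a mark and less of the mark per cell cannot be told apart.

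**Figure D1:**
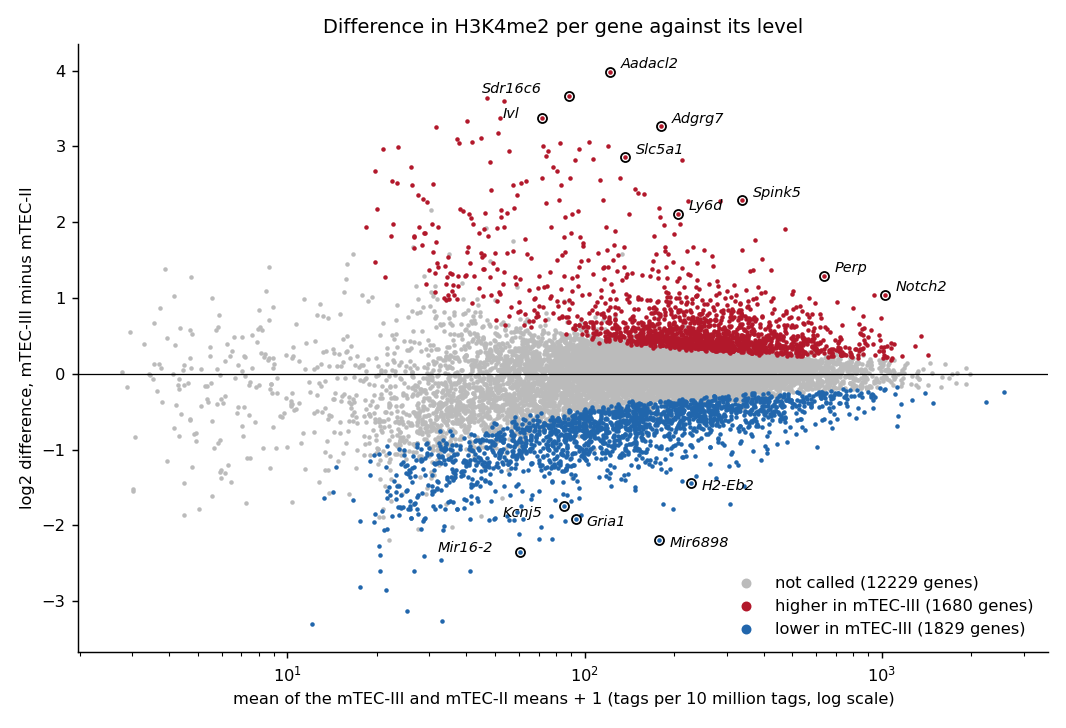
Each point is a gene: the horizontal axis is its mean level over mTEC-III and mTEC-II plus 1 (tags per 10000000 tags, log scale) and the vertical axis its log2 difference, mTEC-III minus mTEC-II. Red points (1680 genes) were called higher in mTEC-III, blue points (1829) lower and grey points not called; the upper edge reaches 3.99 at Aadacl2, while among the named genes the lowest is Mir16-2 at -2.34.

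The 12 genes with the largest rises, among those called with a mean of at least 100 tags per 10000000 in the higher population and no overlap between libraries, were Aadacl2, Sdr16c6, Ivl, Adgrg7, Pglyrp3, Pglyrp4, Adgrf4, Adgrf2, Sbsn, Il1f6, Hrnr and Slc5a1. Several build or defend the outer skin: Ivl encodes involucrin, a scaffold of the cornified envelope, Hrnr encodes hornerin, a filaggrin-like protein, Sbsn encodes suprabasin, and Pglyrp3 and Pglyrp4 encode proteins that bind bacterial peptidoglycan. Ivl had 128 and 132 in mTEC-III, against 11.03 and 12.2 in mTEC-II (3.38 ± 0.39 SE, adjusted p = 2.9e-05). Hrnr had 135 and 123 in mTEC-III, against 14.9 and 18.9 in mTEC-II (2.87 ± 0.37 SE, adjusted p = 6.6e-05). Sbsn had 174 and 163 in mTEC-III, against 20.1 and 21.1 in mTEC-II (2.97 ± 0.44 SE, adjusted p = 2.2e-04). In these 3 genes each mTEC-III library lay several fold above both mTEC-II libraries, though the rule itself required no overlap. Pglyrp3 had 194 and 173 in mTEC-III, against 25.6 and 17.4 in mTEC-II (3.06 ± 0.28 SE, adjusted p = 4.4e-06), and Pglyrp4 had 151 and 141 in mTEC-III, against 14.9 and 18.9 in mTEC-II (3.05 ± 0.29 SE, adjusted p = 6.0e-06).

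Other large rises lay at enzymes, receptors and a cytokine. Aadacl2, which encodes a predicted esterase, showed the largest: 244 and 210.2 in mTEC-III, against 12.3 and 14.4 in mTEC-II (3.99 ± 0.38 SE, adjusted p = 5.4e-06), in 1 peak at chr3:59810492-59814856 (mm9) in intron 1 of 4. Sdr16c6, a short-chain dehydrogenase gene, had 165 and 161 in mTEC-III, against 12 and 11.8 in mTEC-II (3.66 ± 0.39 SE, adjusted p = 1.5e-05). Il1f6, the gene of the inflammatory cytokine interleukin-36 alpha, had 121 and 144 in mTEC-III, against 17.8 and 14.8 in mTEC-II (2.95 ± 0.43 SE, adjusted p = 2.2e-04). Slc5a1, the sodium-coupled glucose transporter, had 233 and 244 in mTEC-III, against 29.9 and 34.4 in mTEC-II (2.86 ± 0.24 SE, adjusted p = 3.1e-06). The adhesion receptor genes Adgrf4 and Adgrf2 are neighbours on chromosome 17, and both rose: Adgrf4 had 222 and 201 in mTEC-III, against 23.4 and 27.4 in mTEC-II (3.01 ± 0.25 SE, adjusted p = 2.4e-06), and Adgrf2 had 126 and 131 in mTEC-III, against 14.9 and 15.2 in mTEC-II (3.01 ± 0.30 SE, adjusted p = 9.7e-06). The peak counted for another adhesion receptor gene, Adgrg7, lies in intron 1 of 5 of its neighbour Tmem45a, 34130 bases upstream of the Adgrg7 start, and had 321 and 330.3 in mTEC-III, against 35.4 and 30.7 in mTEC-II (3.27 ± 0.30 SE, adjusted p = 4.2e-06). None of these 12 calls was lost under any alternative in which the gene was tested. Adgrg7 could not be tested with peaks within 20 kb.

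**Figure D2:**
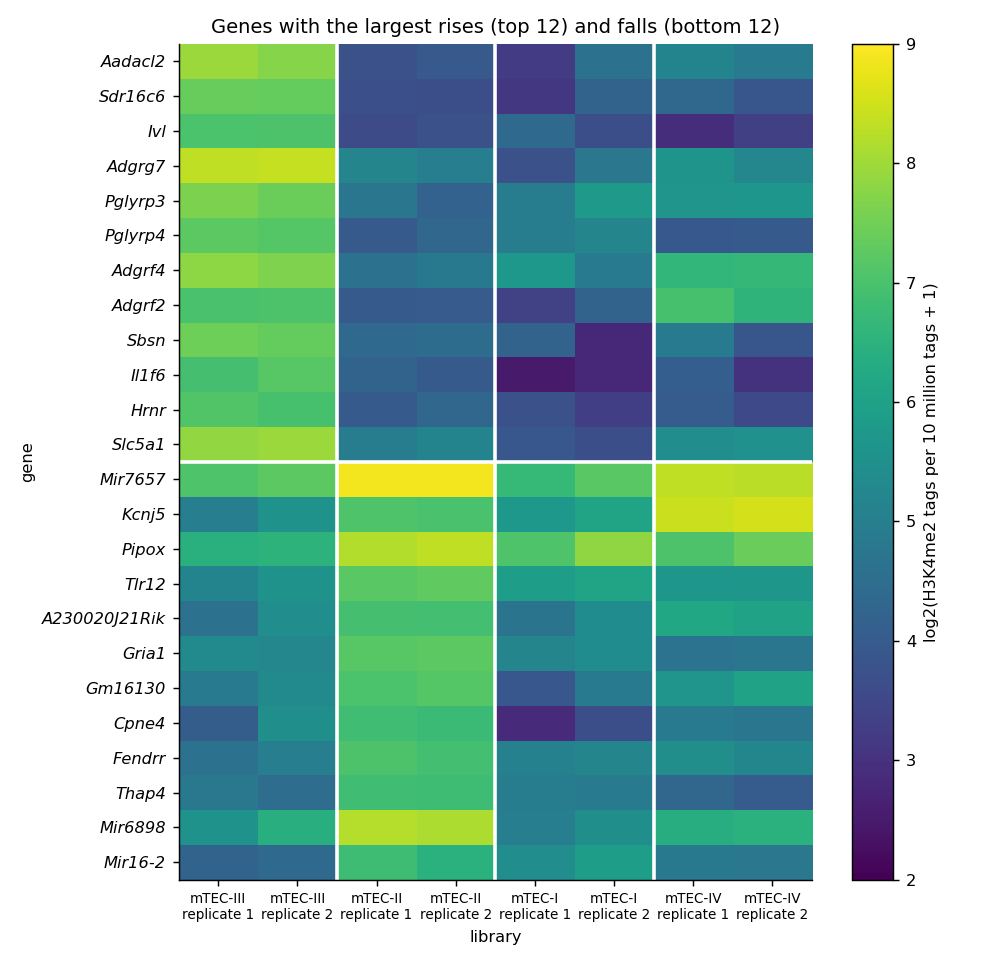
Rows are the 12 genes with the largest rises (top) and the 12 with the largest falls (bottom), columns the 8 H3K4me2 libraries, and colour the level as log2(tags per 10000000 tags + 1). In the top rows the 2 mTEC-III columns are the brightest, except that Adgrf2 is near the same level in mTEC-IV; in the bottom rows the 2 mTEC-II columns are brighter than the mTEC-III columns, while Kcnj5 is brightest in mTEC-IV.

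The 12 largest falls were Mir16-2, Mir6898, Thap4, Fendrr, Cpne4, Gm16130, Gria1, A230020J21Rik, Tlr12, Pipox, Kcnj5 and Mir7657. Several carry the name of a small gene inside a larger one, and the peak need not act on either. The peak of Mir16-2 lies in intron 5 of 23 of Smc4, a condensin subunit gene, at chr3:68813863-68817155 (mm9), and had 17.7 and 20.02 in mTEC-III, against 114 and 87.4 in mTEC-II (-2.34 ± 0.28 SE, adjusted p = 3.7e-05). The peak of Mir6898 lies in intron 21 of 21 of Kansl3 and had 46.05 and 84.2 in mTEC-III, against 299 and 278 in mTEC-II (-2.19 ± 0.25 SE, adjusted p = 2.4e-05). The peak of Mir7657 lies in intron 5 of 13 of Fnbp1l and had 134 and 149.6 in mTEC-III, against 468 and 473 in mTEC-II (-1.72 ± 0.14 SE, adjusted p = 2.7e-06). For all 3 the rule itself required both mTEC-II libraries to lie above both mTEC-III libraries.

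Tlr12, a Toll-like receptor gene, had its peak at the start site, with 34.7 and 47.7 in mTEC-III, against 147 and 154 in mTEC-II (-1.86 ± 0.21 SE, adjusted p = 2.8e-05). Gria1, a glutamate receptor subunit gene, had 39.1 and 37.1 in mTEC-III, against 143 and 149.6 in mTEC-II (-1.92 ± 0.23 SE, adjusted p = 4.8e-05). Its peak lies in intron 2 of 15, 161915 bases downstream of the start, and none lies within 20 kb. Kcnj5, an inward-rectifying potassium channel gene, had 30.9 and 46.5 in mTEC-III, against 134 and 125 in mTEC-II (-1.74 ± 0.20 SE, adjusted p = 2.8e-05); its intronic peak at the start fell by 2.37 (adjusted p = 3.0e-04), while a second, 32730 bases downstream, stood at 16.4 in mTEC-III against 15.9 in mTEC-II (means of n = 2). Fendrr, a long non-coding RNA gene of lung and heart mesoderm, had 23.98 and 30.6 in mTEC-III, against 132 and 120.0 in mTEC-II (-2.17 ± 0.25 SE, adjusted p = 2.7e-05), and Thap4 had 27.1 and 21.8 in mTEC-III, against 115 and 112 in mTEC-II (-2.18 ± 0.29 SE, adjusted p = 8.7e-05). The remaining 4 differed by -1.88 (A230020J21Rik, with peaks in an intron of Flvcr1), -2.02 (Cpne4, at a peak 209927 bases downstream of its start), -1.95 (Gm16130) and -1.78 (Pipox). Of these, 3 calls were less firm. Cpne4 did not pass without mTEC-II replicate 1 (-1.98, adjusted p = 0.051) or mTEC-III replicate 1 (-1.31, adjusted p = 0.070). Gm16130 and Pipox did not pass when the sum was held to peaks at most 20 kb from the start (-0.40, adjusted p = 0.79, and -0.75, adjusted p = 0.063), since their called peaks lie in Ccdc33 and Myo18a.

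Single peaks gave a similar picture, and peaks were also called far from the genes they are counted for. The 6 largest rises among peaks were those of Aadacl2, Gm7168, Sdr16c6, Tmem184a, Pglyrp3 and Ivl. The peak counted for Gm7168 lies 72021 bases upstream of it, at chr17:14011231-14015487 (mm9), in intron 22 of 32 of Afdn, which encodes a protein of adherens junctions. That peak had 195 and 180.2 tags in mTEC-III, against 13.9 and 9.26 in mTEC-II (3.93 ± 0.35 SE, adjusted p = 7.9e-05). The peak of Tmem184a, 5229 bases upstream, had 172 and 177 in mTEC-III, against 12 and 14.4 in mTEC-II (3.63 ± 0.29 SE, adjusted p = 4.9e-05). The 6 largest falls were peaks counted for S100a16, Stard4, Kcnj5, Mir16-2, Wipi1 and Cacng8, with differences of -2.52, -2.49, -2.37, -2.34, -2.34 and -2.30. The S100a16 peak, at chr3:90364976-90368860 (mm9) between genes, had 27.8 and 40.04 tags in mTEC-III, against 181 and 211 in mTEC-II (adjusted p = 2.0e-04). None of these 12 peak calls was lost under any alternative.

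Of the genes named by size or from the lists below, some had their start site within 1 kb of the centre of a called peak and a single promoter in the RefSeq table (GRCm38.p6). Those shown are the 3 of them with the largest rises, Ivl, Acer1 and Serpinb11, the 2 with the largest falls, Tlr12 and Kcnj5, and H2-Ob as a member of the MHC class II pathway. Each sequence runs 5′ to 3′ on the gene's strand from 250 bases before to 50 bases after the start site. Capitals mark matches on either strand to 3 motifs of factors of epithelial differentiation: AP-1 (TGANTCA), GRHL (AACCNGTT) and KLF (CCACNCCC), none of which overlap here. Such letters stand in 7.93%, 2.01% and 17.6% of all 27025 RefSeq promoters of this length. Coordinates in this paragraph are GRCm38.p6, all others mm9. The windows are chr3:92573686-92573985 (Ivl, minus strand), chr17:56982077-56982376 (Acer1, minus), chr1:107362064-107362363 (Serpinb11, plus), chr4:128618570-128618869 (Tlr12, minus), chr9:32344295-32344594 (Kcnj5, minus) and chr17:34238655-34238954 (H2-Ob, plus).
Ivl: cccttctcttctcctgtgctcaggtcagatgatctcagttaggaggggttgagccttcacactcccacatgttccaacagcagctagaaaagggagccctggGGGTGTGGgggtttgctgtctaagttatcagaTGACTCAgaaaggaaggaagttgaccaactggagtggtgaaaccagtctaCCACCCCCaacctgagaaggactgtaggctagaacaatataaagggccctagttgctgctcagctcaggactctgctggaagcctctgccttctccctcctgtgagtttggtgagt
Acer1: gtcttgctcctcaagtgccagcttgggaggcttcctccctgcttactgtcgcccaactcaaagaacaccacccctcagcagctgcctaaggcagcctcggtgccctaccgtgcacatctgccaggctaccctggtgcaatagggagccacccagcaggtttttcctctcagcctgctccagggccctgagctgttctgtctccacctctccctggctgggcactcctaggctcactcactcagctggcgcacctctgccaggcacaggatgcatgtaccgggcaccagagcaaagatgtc
Serpinb11: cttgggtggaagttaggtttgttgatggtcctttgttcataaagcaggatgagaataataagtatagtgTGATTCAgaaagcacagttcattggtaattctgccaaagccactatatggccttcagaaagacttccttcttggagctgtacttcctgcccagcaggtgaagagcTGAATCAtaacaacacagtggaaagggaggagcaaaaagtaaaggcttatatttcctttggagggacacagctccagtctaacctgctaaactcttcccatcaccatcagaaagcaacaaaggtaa
Tlr12: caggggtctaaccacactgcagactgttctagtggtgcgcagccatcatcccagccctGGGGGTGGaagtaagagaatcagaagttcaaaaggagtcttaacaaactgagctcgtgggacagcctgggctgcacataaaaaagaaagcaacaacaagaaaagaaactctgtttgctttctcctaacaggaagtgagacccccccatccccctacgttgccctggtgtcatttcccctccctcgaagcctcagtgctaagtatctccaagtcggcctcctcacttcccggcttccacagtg
Kcnj5: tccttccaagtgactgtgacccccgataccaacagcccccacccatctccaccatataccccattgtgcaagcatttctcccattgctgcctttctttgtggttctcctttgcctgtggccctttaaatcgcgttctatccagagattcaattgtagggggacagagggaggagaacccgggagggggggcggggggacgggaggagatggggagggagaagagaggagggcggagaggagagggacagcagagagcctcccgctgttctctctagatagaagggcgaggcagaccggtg
H2-Ob: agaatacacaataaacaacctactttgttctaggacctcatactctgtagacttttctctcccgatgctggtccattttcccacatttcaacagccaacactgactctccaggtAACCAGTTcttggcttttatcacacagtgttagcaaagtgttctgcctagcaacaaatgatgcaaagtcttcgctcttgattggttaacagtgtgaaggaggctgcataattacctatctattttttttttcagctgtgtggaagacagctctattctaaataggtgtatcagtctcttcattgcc

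The Ivl window holds 1 AP-1 match, 116 bases before the start, and 2 KLF matches, 148 and 66 bases before it. The Serpinb11 window holds 2 AP-1 matches, 181 and 76 bases before the start. Tlr12 holds 1 KLF match and H2-Ob 1 GRHL match, and the windows of Acer1 and Kcnj5 hold none of these letters. A match is a run of letters and not a shown binding site. Motif shares and base composition were not compared between called and other genes, since only 78.5% of the higher, 75.4% of the lower and 78.7% of all genes with a peak at the start had a promoter in the table, which makes such a check void.

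Of the 8 genes of the sort gates, Ly6d was called and the other 7 were not. Ly6d had 315 and 351 in mTEC-III, against 83.7 and 69.2 in mTEC-II (2.11 ± 0.18 SE, adjusted p = 3.2e-06), in 1 peak at chr15:74590911-74595667 (mm9) over intron 1 of 2, so the mark went with the gate of mTEC-III. The genes of the MHC class II molecules that the mTEC-II gate reads did not pass: H2-Aa had 327 and 386 in mTEC-III, against 406 and 398 in mTEC-II (-0.18 ± 0.099 SE, adjusted p = 0.21), and H2-Ab1 had 546 and 577 in mTEC-III, against 607 and 649 in mTEC-II (-0.16 ± 0.083 SE, adjusted p = 0.18). For H2-Eb1 the libraries overlapped, with 912 and 1036 in mTEC-III, against 989 and 1023 in mTEC-II (-0.05 ± 0.071 SE, adjusted p = 0.64). H2-Ab1 and H2-Aa did pass with edgeR (-0.24 and -0.25, adjusted p = 0.0035 and 0.012), DESeq2 and voom, and H2-Eb1 passed with voom (-0.12, adjusted p = 0.023). Epcam, the epithelial marker of both gates, had 884 and 1052 in mTEC-III, against 846 and 863 in mTEC-II (0.17 ± 0.077 SE, adjusted p = 0.12), and passed in the fits without mTEC-I replicate 1 (adjusted p = 0.043) or replicate 2 (0.042), without mTEC-III replicate 1 (0.30, adjusted p = 0.018) and with peaks within 20 kb (0.41, adjusted p = 0.0044). Ptprc, which encodes the excluded CD45, had 34.1 and 30.03 in mTEC-III, against 38.9 and 48.9 in mTEC-II (-0.44 ± 0.22 SE, adjusted p = 0.16), and passed with edgeR (0.037) and without both mTEC-I libraries (0.046). Itgb4 and L1cam, of the gates of mTEC-I and mTEC-IV, differed by -0.10 and -0.33 (adjusted p = 0.55 and adjusted p = 0.30).

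Genes of the cornified envelope, the protein shell that replaces the membrane of dying keratinocytes, carried more H3K4me2 in mTEC-III. Of the 50 listed, 23 had a peak, and 17 of these were higher, 1 lower and 5 not called, with a median difference of 0.92 (0.06 over all genes). Some members, such as Ivl and Hrnr, were high in mTEC-III alone of the populations, so the need for a peak tilts this share toward rises. For this list and those below, the shares over all genes tested were 10.7% higher and 11.6% lower. Besides Ivl, Pglyrp3, Pglyrp4, Sbsn and Hrnr above, the higher members included Tgm1, the transglutaminase that crosslinks the envelope, with 271 and 260.2 in mTEC-III, against 69.8 and 79.97 in mTEC-II (1.82 ± 0.17 SE, adjusted p = 5.6e-06). The called member that fell was Tgm3, another transglutaminase, with 66.2 and 90.7 in mTEC-III, against 163 and 164 in mTEC-II (-1.07 ± 0.17 SE, adjusted p = 3.8e-04). Lor, which encodes loricrin, differed by -0.03 (adjusted p = 0.87). Summed over the 23 genes, the level was 4681 and 4753 in mTEC-III, against 2648 and 2631 in mTEC-II. Leaving out single libraries kept between 12 (without mTEC-II replicate 2) and 19 higher calls.

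Barrier lipid genes, which make and export the ceramides and acylated lipids between cornified cells, rose in 17 of 24 members and fell in none, with a median of 0.71. Abca12, the transporter that loads lipids into lamellar granules, had 156 and 126 in mTEC-III, against 23.03 and 25.2 in mTEC-II (2.49 ± 0.27 SE, adjusted p = 1.8e-05). Cers3, the ceramide synthase of very long chains, had 168 and 139 in mTEC-III, against 36.7 and 31.1 in mTEC-II (2.14 ± 0.21 SE, adjusted p = 7.5e-06), and both of its peaks in intron 1 of 10 were called. Acer1, a ceramidase gene, had 61.2 and 51.2 in mTEC-III, against 5.52 and 4.44 in mTEC-II (3.26 ± 0.61 SE, adjusted p = 0.0015), close to the floors of the mTEC-II libraries. Pnpla1, which forms acylceramides, had 95.9 and 100.1 in mTEC-III, against 17.5 and 19.2 in mTEC-II (2.35 ± 0.40 SE, adjusted p = 7.2e-04). The members not called included Aloxe3 (-0.30) and Ugcg (-0.19). The higher members numbered 10 without mTEC-II replicate 1 and 10 without mTEC-III replicate 1.

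Proteases and their inhibitors of the skin surface rose in 15 of 18 members with a peak, of 33 listed, and none fell (median 1.110). The need for a peak tilts this share toward rises too, since members such as Klk13 were high in mTEC-III alone of the populations. Spink5, the inhibitor that restrains skin kallikreins, had 573 and 551 in mTEC-III, against 116 and 113 in mTEC-II (2.29 ± 0.13 SE, adjusted p = 1.1e-07), and both its peaks rose, by 2.28 at 2415 bases downstream of the start and by 2.24 at a peak 81743 bases upstream. Klk13, a kallikrein gene, had 109.8 and 105 in mTEC-III, against 16.9 and 18.1 in mTEC-II (2.55 ± 0.45 SE, adjusted p = 9.9e-04). Serpinb11, of the clade B serpins, had 63.1 and 68.3 in mTEC-III, against 6.49 and 7.03 in mTEC-II (3.10 ± 0.51 SE, adjusted p = 5.7e-04), and Prss22, a serine protease gene, had 50.5 and 80.1 in mTEC-III, against 12.3 and 15.9 in mTEC-II (2.10 ± 0.38 SE, adjusted p = 0.0011). St14, which encodes matriptase, differed by -0.09 (adjusted p = 0.55). The higher members numbered 9 without mTEC-II replicate 1 or 2. How reads shared between near-identical copies of the Klk, Serpinb, Skint, Ly6 and H2 families were counted was not given by the labels or file headers.

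Suprabasal keratins, the filaments of cells that have left the basal layer, had 9 of 17 members with a peak, of which 4 rose and none fell (median 0.96). Here too the need for a peak tilts the share toward rises, since Krt77 was high in mTEC-III alone of the populations. Krt10, a main keratin of the suprabasal skin, had 477 and 457 in mTEC-III, against 224 and 255 in mTEC-II (0.96 ± 0.10 SE, adjusted p = 1.3e-05), and its 3 peaks were all called, by 0.64 at the gene, 1.01 just upstream and 2.84 at a peak 13870 bases upstream. Krt78 had 319 and 340.3 in mTEC-III, against 154 and 148 in mTEC-II (1.12 ± 0.13 SE, adjusted p = 3.8e-05), and Krt23 had 334 and 288 in mTEC-III, against 79.8 and 91.8 in mTEC-II (1.84 ± 0.17 SE, adjusted p = 4.3e-06). Krt77 had 82.01 and 65.4 in mTEC-III, against 8.11 and 7.78 in mTEC-II (3.05 ± 0.73 SE, adjusted p = 0.0076), a call that ended without any 1 of the 4 libraries compared (2.89 to 3.21, adjusted p = 0.057 to 0.11). With either mTEC-I library left out, 7 members were higher. Krt1, the partner of Krt10, differed by 0.14 (adjusted p = 0.47).

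Among 6 basal and simple keratins with a peak, 1 rose and 1 fell (median -0.12). Krt5, a keratin of the basal layer, had 179.8 and 187 in mTEC-III, against 99.9 and 85.5 in mTEC-II (0.98 ± 0.16 SE, adjusted p = 5.1e-04), below the 413 and 408 of mTEC-I. Its partner Krt14 went the other way, with 108 and 148 in mTEC-III, against 192 and 191 in mTEC-II (-0.60 ± 0.17 SE, adjusted p = 0.018), but did not pass without mTEC-II replicate 1 (-0.59, adjusted p = 0.13), mTEC-II replicate 2 (-0.60, adjusted p = 0.12) or mTEC-III replicate 1 (-0.37, adjusted p = 0.20). The fits lacking either mTEC-I library had 2 members higher and 2 lower. Krt8 and Krt18, the keratins of simple epithelium, differed by -0.18 and -0.11 (adjusted p = 0.12 and adjusted p = 0.34). Both passed with edgeR, at -0.25 and -0.19 (adjusted p = 0.0011 and 0.030), and with voom. Krt8 also passed with equal totals (0.027), RLE size factors (0.021), cyclic loess (0.046), DESeq2 (0.0079) and without either or both mTEC-I libraries (0.043 without both).

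**Figure D3:**
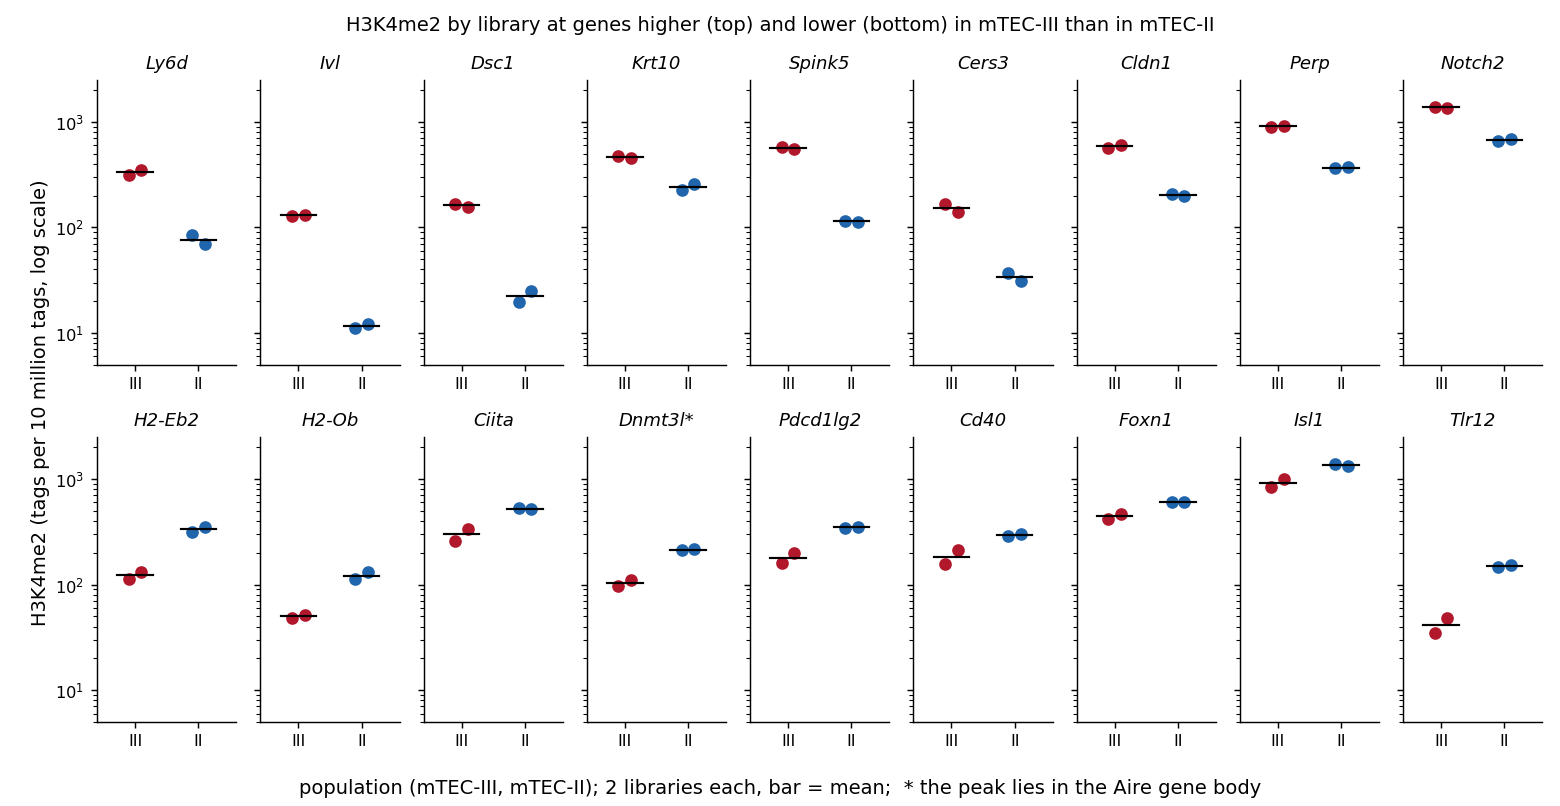
H3K4me2 per library (tags per 10000000 tags, log scale) at 9 genes higher in mTEC-III (top) and 9 lower (bottom); in each panel mTEC-III is red on the left and mTEC-II blue on the right, each point is 1 of 2 libraries and the bar is their mean. All 18 are called genes, and in each panel both points of one population lie beyond both points of the other. Over all genes tested, both mTEC-III libraries lay above both mTEC-II libraries in 40.7% and below in 29.3%. Ivl has 128 and 132 in mTEC-III against 11.03 and 12.2 in mTEC-II.

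Desmosome and junction genes, which hold epithelial sheets together, rose in 17 of 36 members and fell in 2 (median 0.35). Dsc1 and Dsg3, which encode desmosomal cadherins, had 165 and 157 in mTEC-III, against 19.5 and 24.8 in mTEC-II (2.82 ± 0.32 SE, adjusted p = 2.4e-05) and 103 and 88.9 in mTEC-III, against 16.9 and 15.6 in mTEC-II (2.49 ± 0.24 SE, adjusted p = 6.6e-06). Cldn1, the claudin of the skin's tight junctions, had 559 and 607 in mTEC-III, against 209 and 196 in mTEC-II (1.52 ± 0.10 SE, adjusted p = 3.2e-07). Perp, a desmosome protein gene under p63, had 886 and 921 in mTEC-III, against 363 and 374 in mTEC-II (1.29 ± 0.078 SE, adjusted p = 1.2e-07), and all 3 of its peaks rose. Gjb5, a connexin gene, and Dsg2, the desmoglein of simple epithelia, fell by 0.58 and 0.33 (adjusted p = 0.0029 and 0.0079), and neither passed without mTEC-II replicate 2 (0.083 and 0.055). The falls were 1 or 0 without mTEC-II replicate 1 or 2 and 1 without mTEC-III replicate 1. The rises ranged from 12 (without mTEC-II replicate 2) to 21.

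Transcription factors of epithelial differentiation rose in 19 of 29 members and fell in 3 (median 0.32). Elf5, an ETS factor gene, had 78.2 and 83.02 in mTEC-III, against 35.4 and 34.4 in mTEC-II (1.18 ± 0.25 SE, adjusted p = 0.0030). Grhl3 and Grhl1, of the grainyhead family that drives barrier formation, had 551 and 532 in mTEC-III, against 316 and 351 in mTEC-II (0.70 ± 0.091 SE, adjusted p = 8.4e-05) and 491 and 505 in mTEC-III, against 315 and 335 in mTEC-II (0.61 ± 0.088 SE, adjusted p = 1.8e-04). Klf5, a Krüppel-like factor gene with 13 peaks, had 1057 and 1130.5 in mTEC-III, against 733 and 737 in mTEC-II (0.57 ± 0.064 SE, adjusted p = 2.2e-05), and 3 of its peaks were called, all higher. Pparg, Ovol2 and Maf were lower (-0.51, -0.49 and -0.20, adjusted p = 0.0034, 0.0085 and 0.043), and all 3 missed the threshold without mTEC-II replicate 1 (0.090, 0.062 and 0.28). Leaving out mTEC-II replicate 1 or 2 left 11 members higher and 0 or 1 lower, and without mTEC-III replicate 1 or 2, 12 were higher, with 1 lower in the first case.

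Of the EGFR and Notch pathway, 9 of 23 members rose and 2 fell (median 0.32). Notch2, a receptor gene, had 1392 and 1361 in mTEC-III, against 655 and 679.8 in mTEC-II (1.04 ± 0.064 SE, adjusted p = 1.2e-07), with 3 of its 6 peaks higher, in introns 1 and 2 of 33. Nrarp, a feedback inhibitor that Notch induces, had 1046 and 1123 in mTEC-III, against 656 and 626 in mTEC-II (0.76 ± 0.074 SE, adjusted p = 7.3e-06), with 4 of 5 peaks higher. The ligand gene Jag2 had 75.7 and 75.4 in mTEC-III, against 149.9 and 149.9 in mTEC-II (-0.98 ± 0.13 SE, adjusted p = 9.3e-05), while the ligand Jag1 rose by 0.44 (adjusted p = 3.8e-04). The EGFR ligand gene Ereg had 43.5 and 35.9 in mTEC-III, against 18.2 and 15.6 in mTEC-II (1.19 ± 0.35 SE, adjusted p = 0.023), a call lost without any 1 of the 4 libraries compared (1.05 to 1.32, adjusted p = 0.070 to 0.17). Without mTEC-II replicate 2 or mTEC-III replicate 2, 5 members were higher, and without mTEC-II replicate 1 or mTEC-III replicate 1, 1 was lower.

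Of the Ly6 family, 15 of 29 members had a peak, and 6 rose and 2 fell (median 0.15). Besides Ly6d, Lynx1, a modulator of acetylcholine receptors, had 143 and 134 in mTEC-III, against 67.8 and 64.8 in mTEC-II (1.05 ± 0.16 SE, adjusted p = 2.6e-04) and lies near Ly6d in a run of called peaks. Ly6g6c had 59.3 and 86.5 in mTEC-III, against 21.4 and 17.8 in mTEC-II (1.82 ± 0.43 SE, adjusted p = 0.0063), but did not pass without mTEC-II replicate 2 (1.70, adjusted p = 0.066) or mTEC-III replicate 2 (1.56, adjusted p = 0.098). Lypd2 had 36.6 and 47.7 in mTEC-III, against 13.6 and 17.8 in mTEC-II (1.37 ± 0.45 SE, adjusted p = 0.040), a call lost without any 1 of the 4 libraries compared (1.18 to 1.55, adjusted p = 0.12 to 0.27) or without mTEC-IV replicate 1 (adjusted p = 0.058). Ly6h was lower (-1.11, adjusted p = 4.0e-04). Without any 1 of the 4 libraries compared or mTEC-IV replicate 2, 1 member was lower.

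The MHC class II pathway, which loads peptides for CD4 T cells, had 13 of 15 members with a peak, of which 5 fell and none rose (median -0.17). Ciita, the master activator of the class II genes, had 258 and 339 in mTEC-III, against 527 and 519 in mTEC-II (-0.82 ± 0.12 SE, adjusted p = 2.3e-04). H2-Eb2, a class II beta chain gene, had 112 and 132 in mTEC-III, against 315 and 349 in mTEC-II (-1.44 ± 0.17 SE, adjusted p = 2.9e-05). H2-Ob, a chain of the loading modulator H2-O, had 48.6 and 51.2 in mTEC-III, against 112 and 131 in mTEC-II (-1.26 ± 0.22 SE, adjusted p = 8.7e-04), and H2-DMb2, a chain of the loading catalyst H2-M, had 293 and 303 in mTEC-III, against 488 and 487 in mTEC-II (-0.71 ± 0.096 SE, adjusted p = 1.2e-04). In each of these 4, named for their large called changes, both mTEC-III libraries lay below both mTEC-II libraries. This held for 7 of the 13 members, while in 2 both lay above. Over all genes tested the shares were 29.3% below and 40.7% above. Cd74, the invariant chain gene, differed by -0.12 (adjusted p = 0.54). In the fits lacking either mTEC-I library, 1 member was higher. With voom, 9 members were lower.

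The MHC class I pathway went the other way, with 4 of 15 members higher and none lower (median 0.19). Tap1, a chain of the peptide transporter, had 431 and 446 in mTEC-III, against 299 and 309 in mTEC-II (0.53 ± 0.10 SE, adjusted p = 0.0020). Psme2, Tap2 and B2m rose by 0.36, 0.33 and 0.31 (adjusted p = 0.026, 0.032 and 0.017), less than Tap1. Without mTEC-II replicate 1, mTEC-II replicate 2 or mTEC-III replicate 2, 1 member was higher, and without mTEC-III replicate 1, 2 were. B2m had adjusted p = 0.072 to 0.12 in these 4 fits, and Tap2 0.071 to 0.32. Psme2 missed the threshold in 3 of them, at 0.062, 0.27 and 0.21. Tap2 and Psme2 were also lost with cyclic loess (adjusted p = 0.094 and 0.064), and Tap2 without either mTEC-IV library (0.053 for each), with equal totals, RLE size factors or its strongest peak (0.052, 0.062 and 0.060).

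Genes of the Aire stage fell in 9 of the 15 members with a peak, of 21 listed, and none rose (median -0.43). The 1 peak inside the Aire gene lies at chr10:77503091-77507627 (mm9) over exon 3 of 12, and its centre is 327 bases from the start of the neighbour Dnmt3l, so that the file counts it for Dnmt3l, a cofactor of DNA methyltransferases. It had 97.2 and 111 in mTEC-III, against 212 and 215 in mTEC-II (as a peak, -1.03 ± 0.17 SE, adjusted p = 0.0024). Pdcd1lg2, which encodes the inhibitory ligand PD-L2, had 159 and 197 in mTEC-III, against 346 and 349.5 in mTEC-II (-0.97 ± 0.12 SE, adjusted p = 5.6e-05), with 3 of 7 peaks lower, from 4627 bases upstream of the start to 2086 downstream. Hdc, the histidine decarboxylase gene, had 129 and 157 in mTEC-III, against 232 and 231 in mTEC-II (-0.70 ± 0.17 SE, adjusted p = 0.0072), but its 3 peaks did not move together: that 1483 bases downstream of the start fell by 1.93 (adjusted p = 0.0030), while that 20903 bases downstream stood at 91.4 in mTEC-III against 58.0 in mTEC-II (means, adjusted p = 0.13). Hdc did not pass without mTEC-II replicate 1 or 2 or mTEC-III replicate 1 (adjusted p = 0.071 to 0.10). Tnfrsf9, the receptor 4-1BB, had 50.5 and 54.8 in mTEC-III, against 95.7 and 105 in mTEC-II (-0.92 ± 0.30 SE, adjusted p = 0.037), a call lost without any 1 of the 4 libraries compared (adjusted p = 0.11 to 0.28) or with cyclic loess (-0.59, adjusted p = 0.19). Cd80, Relb and Fezf2, of the same list, differed by -0.15, 0.04 and 0.08 (adjusted p = 0.21, adjusted p = 0.89 and adjusted p = 0.31). Cd80 passed with edgeR (-0.22, adjusted p = 0.011) and Fezf2 with peaks within 20 kb (0.24, adjusted p = 0.026). Without mTEC-II replicate 2 or mTEC-III replicate 1, 4 members were lower.

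Of the partners of Aire, 2 of 17 rose and none fell (median 0.18), a share of rises near the 10.7% of all genes tested. Top1, a topoisomerase that Aire recruits, had 427 and 386 in mTEC-III, against 258 and 271 in mTEC-II (0.62 ± 0.11 SE, adjusted p = 8.0e-04), and both its peaks rose. Ep300, a histone acetyltransferase gene, rose by 0.34 (adjusted p = 0.037), a call lost without any 1 library of mTEC-II, mTEC-III or mTEC-IV (adjusted p = 0.058 to 0.25) and under 3 scalings. Without mTEC-I replicate 1 or 2, 7 members were higher.

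Co-stimulatory genes fell in 4 of 14 members and rose in 1 (median -0.11). Tnfrsf14, the herpesvirus entry mediator gene, had 238 and 256 in mTEC-III, against 432 and 384 in mTEC-II (-0.72 ± 0.10 SE, adjusted p = 1.6e-04). Cd40, the receptor through which T cells signal to mTEC, had 156 and 210.2 in mTEC-III, against 290.4 and 299.5 in mTEC-II (-0.70 ± 0.14 SE, adjusted p = 0.0020). Tnfsf4, the gene of OX40 ligand, rose, with 64.98 and 66.5 in mTEC-III, against 14.9 and 15.2 in mTEC-II (2.06 ± 0.33 SE, adjusted p = 4.6e-04), in 1 peak 49063 bases from its start site. With peaks within 20 kb, no member was higher.

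In the NF-kB pathway, whose receptors drive mTEC maturation, 5 of 30 members rose and 4 fell (median 0.01). The shares over all genes tested were 10.7% higher and 11.6% lower, so these counts set the pathway little apart. Tnfsf11, the gene of RANK ligand, had 53.6 and 108 in mTEC-III, against 169 and 148 in mTEC-II (-1.05 ± 0.25 SE, adjusted p = 0.0068). Its receptor gene Tnfrsf11a had 610.0 and 684 in mTEC-III, against 828 and 915 in mTEC-II (-0.43 ± 0.093 SE, adjusted p = 0.0040). Traf1, an adaptor gene, fell by 0.56 and Tnfrsf1a, a receptor gene of tumour necrosis factor, rose by 0.46 (adjusted p = 0.015 and 0.0051). Tnfsf11 was lost without mTEC-II replicate 1 (adjusted p = 0.084) or mTEC-III replicate 1 (0.11), Tnfrsf11a without mTEC-II replicate 2 (0.080) or mTEC-III replicate 1 (0.072), Traf1 without mTEC-II replicate 2, mTEC-III replicate 1 or 2 (0.15, 0.13 and 0.079) or with its strongest peak alone (0.85), and Tnfrsf1a without mTEC-II replicate 1 (0.083). Leaving out mTEC-II replicate 1 or 2 left 0 or 2 higher, leaving out mTEC-III replicate 1 or 2 left 2 or 1, and leaving out mTEC-II replicate 2 or mTEC-III replicate 1 left 1 lower.

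Chemokine genes fell in 6 of the 14 members with a peak, of 24 listed, and rose in 1 (median -0.32). Cxcl11, a ligand of CXCR3, had 58.7 and 58.3 in mTEC-III, against 128 and 116 in mTEC-II (-1.05 ± 0.19 SE, adjusted p = 0.0014). Cxcl12, Ccl27a and Cxcl9 fell by 0.61, 0.61 and 0.53 (adjusted p = 0.0042, 0.012 and 0.037). Each of these 3 was lost without mTEC-II replicate 1 (adjusted p = 0.073, 0.073 and 0.22) and without mTEC-III replicate 1 (0.073, 0.14 and 0.19). Ccl27a and Cxcl9 were also lost without mTEC-II replicate 2 (0.13 and 0.20), and Cxcl9 without mTEC-III replicate 2 or either mTEC-IV library (0.056, 0.057 and 0.057). Without mTEC-II replicate 1 or 2 or mTEC-III replicate 1, 1, 2 or 3 members were lower, and no member was higher without any 1 library of mTEC-II, mTEC-III or mTEC-IV.

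**Figure D4:**
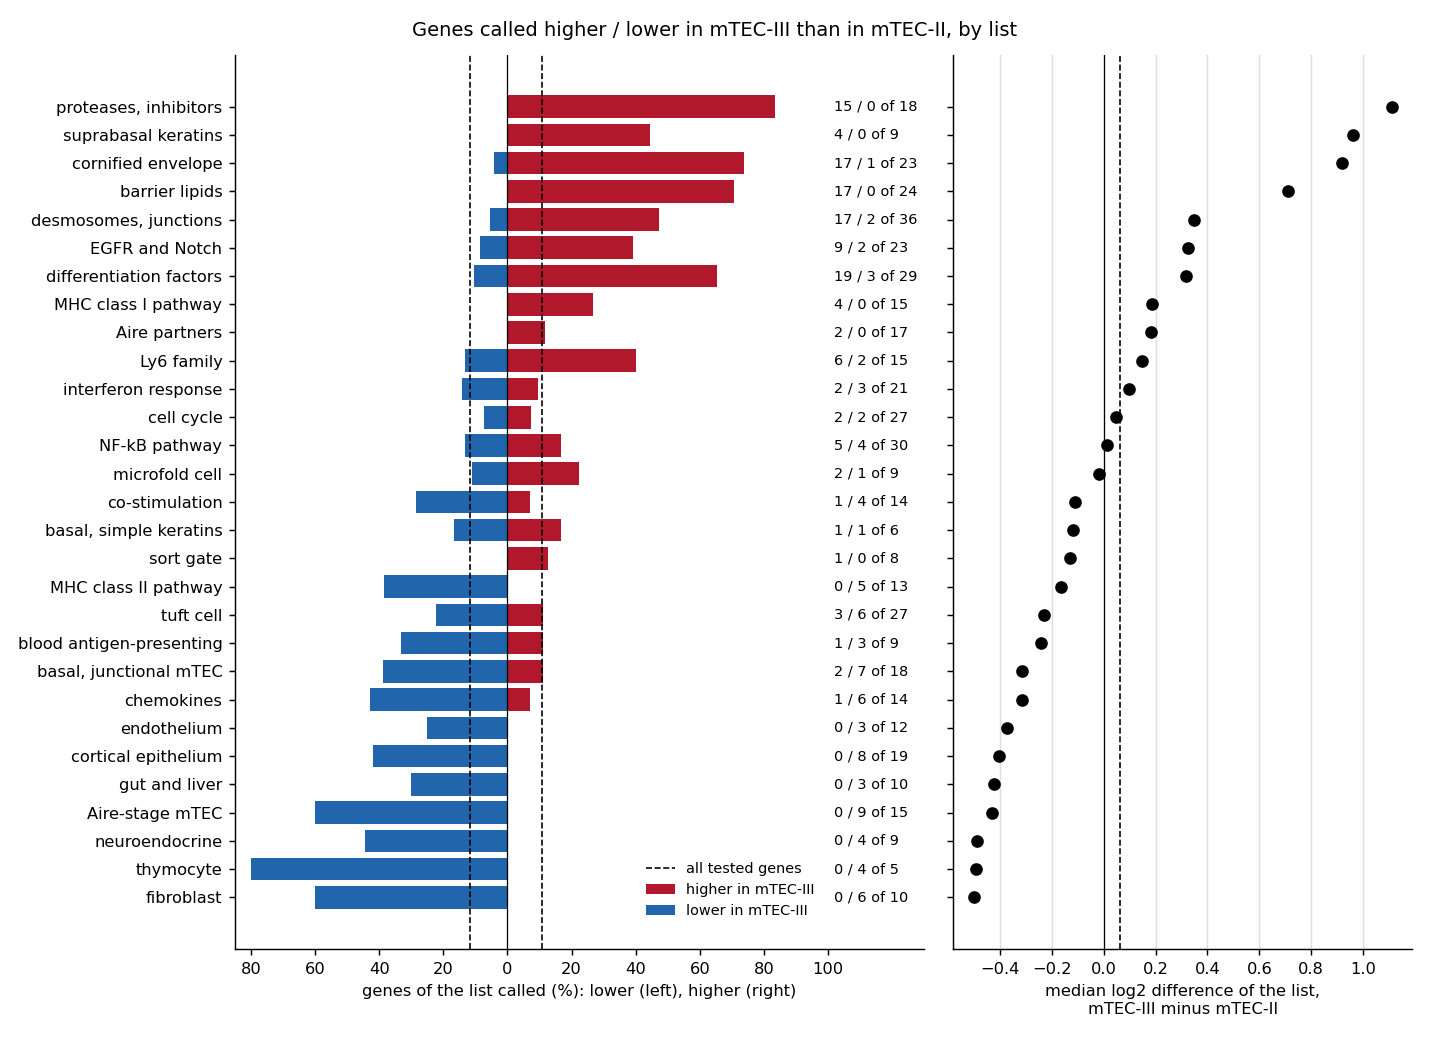
For each of 29 gene lists, the left panel gives the percentage of its tested genes called lower (blue, to the left) and higher (red, to the right) in mTEC-III, with the counts as higher / lower of tested, and the right panel the median log2 difference, mTEC-III minus mTEC-II; dashed lines mark all tested genes (10.7% higher, 11.6% lower, median 0.06). Proteases, suprabasal keratins, cornified envelope and barrier lipids have the highest medians, from 0.71 to 1.110, and fibroblast, thymocyte and neuroendocrine genes the lowest, from -0.50 to -0.49.

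Lists of other epithelial types were mostly lower or mixed. Of the cortical thymic epithelium 8 of 19 members fell and none rose (median -0.40), among them Cd83, an activation marker, with 156 and 173 in mTEC-III, against 268 and 255 in mTEC-II (-0.66 ± 0.11 SE, adjusted p = 6.6e-04), and Foxn1, the master factor of thymic epithelium, with 413 and 469 in mTEC-III, against 609 and 606 in mTEC-II (-0.46 ± 0.092 SE, adjusted p = 0.0021). Without mTEC-I replicate 1 or 2, 13 were lower, and without mTEC-II replicate 1 or mTEC-III replicate 1, 5 were. Of the basal and junctional mTEC list 7 of 18 fell and 2 rose (median -0.31), with Bcam, a laminin receptor gene, at 39.1 and 48.3 in mTEC-III, against 88.9 and 90.3 in mTEC-II (-1.03 ± 0.19 SE, adjusted p = 0.0011). Without mTEC-II replicate 1 or 2, 1 or 3 of these fell, and without any 1 of the 4 libraries compared 1 rose.

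Of the list of tuft cells, which are chemosensory, 6 of 27 fell and 3 rose (median -0.23), a share of rises near the 10.7% of all genes tested. Pou2f3, the master factor of tuft cells, rose, with 626 and 596 in mTEC-III, against 361 and 436 in mTEC-II (0.62 ± 0.090 SE, adjusted p = 2.0e-04), far below the 1515 and 1542 of mTEC-IV. Ascl2, a factor gene of stem and progenitor cells, rose by 0.86 (adjusted p = 0.0010). Gnb3, a G protein subunit gene of taste signalling, had 20.2 and 18.8 in mTEC-III, against 53.9 and 49.6 in mTEC-II (-1.36 ± 0.22 SE, adjusted p = 5.2e-04), against 257 and 300.5 in mTEC-IV. Without mTEC-I replicate 1 or 2, 12 fell and 5 rose, and without mTEC-III replicate 1, 3 fell. Spib, an ETS factor gene in both the tuft and the microfold lists, had 235 and 298 in mTEC-III, against 457 and 459 in mTEC-II (-0.79 ± 0.11 SE, adjusted p = 1.8e-04). Of the microfold cell list 2 of 9 rose, Clu and Tnfaip2 (0.85 and 0.61), and Spib fell (median -0.02), a share of falls near the 11.6% of all genes tested. It was 3 falls without mTEC-I replicate 1 or 2.

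Neuroendocrine genes fell in 4 of 9 members (median -0.49). Isl1, a LIM homeobox factor gene, had 835 and 1006 in mTEC-III, against 1372 and 1328 in mTEC-II (-0.56 ± 0.080 SE, adjusted p = 1.8e-04), with 5 of 8 peaks lower. Gut and liver factors fell in 3 of 10 members (median -0.42), Cdx1, Foxa2 and Gata4 (-0.69, -0.45 and -0.40, adjusted p = 0.0089, 0.0064 and 0.025). Without mTEC-II replicate 1 or 2 or mTEC-III replicate 1 none of them passed (adjusted p = 0.058 to 0.24), and without mTEC-I replicate 1 or 2, 7 members fell.

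Of the cell cycle list 2 of 27 rose and 2 fell (median 0.05), below the shares over all genes tested (10.7% higher, 11.6% lower). Ccnd2 and Ccnd1, the cyclins of entry into the cycle, had 398 and 451 in mTEC-III, against 613 and 596 in mTEC-II (-0.51 ± 0.081 SE, adjusted p = 4.2e-04) and 365 and 373 in mTEC-III, against 528 and 517 in mTEC-II (-0.50 ± 0.080 SE, adjusted p = 4.2e-04). Cdkn2a and Cdkn2b, neighbouring genes of inhibitors of the kinases these cyclins bind, had 560.2 and 597 in mTEC-III, against 422 and 424 in mTEC-II (0.45 ± 0.087 SE, adjusted p = 0.0018) and 1069 and 1049.8 in mTEC-III, against 818 and 789 in mTEC-II (0.40 ± 0.089 SE, adjusted p = 0.0047). No Cdkn2a peak was called alone (adjusted p = 0.12 to 0.30). Its strongest lies 116 bases from a Cdkn2a start site and also at the start of Gm12610. Of the Cdkn2b peaks only that at the gene was called (0.51, adjusted p = 0.015), while the others lie 59869 bases or more upstream, in introns of Gm12610. Cdkn2b was lost without mTEC-II replicate 2 (0.37, adjusted p = 0.063) or mTEC-III replicate 1 (0.39, adjusted p = 0.055), and Cdkn2a with its strongest peak alone (0.27, adjusted p = 0.26). Mki67, the proliferation marker, differed by -0.10 (adjusted p = 0.40). Of the interferon response 2 of 21 rose and 3 fell (median 0.10), near the 10.7% and 11.6% of all genes: Irf9, part of the factor that interferon activates, rose by 0.81 (adjusted p = 5.5e-05), and Iigp1, an interferon-induced GTPase gene, fell by 0.94 (adjusted p = 8.3e-05). Rises numbered 6 without mTEC-I replicate 1 or 2. Leaving out either mTEC-II library, 1 rose and 1 fell, and without mTEC-III replicate 1 or either mTEC-IV library 1 rose.

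Markers of non-epithelial cells were mostly lower in mTEC-III where they were called. Of the thymocyte list 5 of 16 members had a peak and 4 fell. Their summed level was 1176 and 1244 in mTEC-III, against 1509 and 1539 in mTEC-II, most of it at Bcl11b, and no peak lay nearest to Cd3e, Cd4, Cd8a, Rag1 or Ptcra. The Bcl11b peak at the start stood at 353.6 in mTEC-III against 360.5 in mTEC-II (means, adjusted p = 0.88). Its called peaks lie 101211 bases downstream and 50261 upstream. With the strongest peak alone, Bcl11b and Tcf7 were lost (-0.03 and -0.004, adjusted p = 0.87 and 0.99). Of the fibroblast list 10 of 14 had a peak and 6 fell, with a summed level of 594 and 694 in mTEC-III, against 855 and 875 in mTEC-II. Of the endothelium list 12 of 14 had a peak and 3 fell, with 1675 and 1853 in mTEC-III, against 2071 and 2083 in mTEC-II. Of the blood antigen-presenting list 9 of 17 had a peak, 3 fell and 1 rose, with 946 and 969.7 in mTEC-III, against 1200.0 and 1186 in mTEC-II, and no peak lay nearest to Ms4a1, Spi1, Tyrobp or Lyz2. The riser was Itgax, whose peak, in intron 12 of 29 of Itgam and 31200 bases upstream of the Itgax start, had 93.4 and 75.95 in mTEC-III, against 19.5 and 16.7 in mTEC-II (2.16 ± 0.40 SE, adjusted p = 0.0013). Pax5, the B cell factor gene, had 82.01 and 85.96 in mTEC-III, against 167 and 189 in mTEC-II (-1.07 ± 0.17 SE, adjusted p = 3.3e-04). Their part in the falls of the MHC class II, co-stimulation and chemokine genes was not tested.

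These falls were not firm in number. The thymocyte falls numbered 0 without mTEC-II replicate 2 or mTEC-III replicate 1, 1 without mTEC-II replicate 1, and 2 without mTEC-III replicate 2 or either mTEC-IV library. The fibroblast falls numbered 0 when mTEC-II replicate 1 was left out, 1 for mTEC-II replicate 2, 1 for mTEC-III replicate 1 and 3 for either mTEC-IV library. The endothelium falls numbered 1 without mTEC-II replicate 1, mTEC-II replicate 2 or mTEC-III replicate 1, 5 without mTEC-III replicate 2 and 6 without either mTEC-I library.

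The other populations show where mTEC-III and mTEC-II stood apart from them, as a description of the same libraries. Of the 1680 genes higher in mTEC-III, mTEC-III had the highest mean of the 4 populations in 1211 (72.1%), and mTEC-II had the lowest in 919 (54.7%). Their median difference from the mean of mTEC-I and mTEC-IV was 0.33 in mTEC-III and -0.19 in mTEC-II. Of the 1829 genes lower in mTEC-III, mTEC-III had the lowest mean of the 4 in 1258 (68.8%), and mTEC-II had the highest in 724 (39.6%). Their median difference from the mean of mTEC-I and mTEC-IV was -0.55 in mTEC-III and 0.13 in mTEC-II. In both directions the median difference was larger in size for mTEC-III than for mTEC-II. A part of this is built in, since the genes were chosen by mTEC-III and mTEC-II values. These medians keep the sign of each gene's difference, so opposite signs cancel. Which population lay farther from mTEC-I and mTEC-IV gene by gene was not tested.

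The shares of called peaks differed between classes of distance from the start site, and for falls the order of the classes changed with the level of the peaks. Of peaks centred 1 to 5 kb from a start site, 15.5% were higher and 9.77% lower, against 6.81% and 7.26% of those within 1 kb. Beyond 50 kb, 5.11% were higher and 12.8% lower. Peaks called higher were wider, with a median of 3247 bases, against 2063 for those called lower and 2096 for those not called. They were also stronger, with median levels of 165 in mTEC-III and 92.0 in mTEC-II, against 35.4 and 76.8 for those called lower. Width at equal level was not tested. Level also differs between the distance classes. Among peaks with a mean level under the median of all peaks, 7.59% of those at 1 to 5 kb were higher and 12.1% lower. At or above the median 19.9% were higher and 8.46% lower. Within 1 kb the shares higher were 5.72% under the median and 7.01% at or above it, so the gap between these classes in rises was wider among the stronger peaks. The shares lower within 1 kb were 17.0% under the median and 5.47% at or above it, against 12.8% and 13.0% beyond 50 kb.

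**Figure D5:**
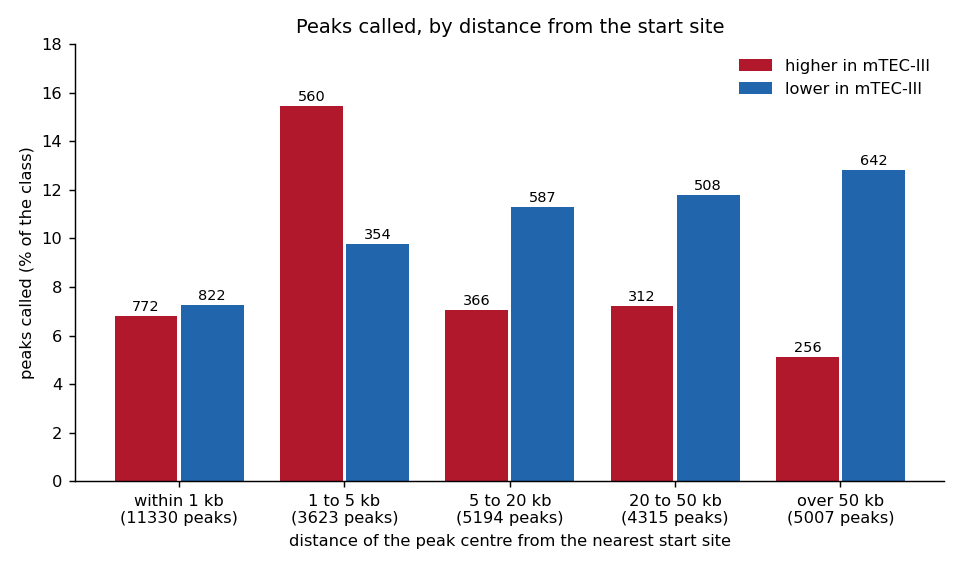
Percentage of tested peaks in each class of distance from the nearest start site that were called higher (red, left bar) or lower (blue, right bar) in mTEC-III than in mTEC-II, with the number of peaks called above each bar and the number in the class below it. Peaks at 1 to 5 kb were called higher in 15.5% of cases, and those beyond 50 kb lower in 12.8%.

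The authors' own lists of peaks, which their names describe as top sets of combined replicates, hold 19321 peaks for mTEC-III and 23949 for mTEC-II. Of the 2266 peaks higher in mTEC-III, 851 were in the mTEC-III list alone, 1321 in both lists, 1 in the mTEC-II list alone and 93 in neither. Of the 2913 lower, 1 was in the mTEC-III list alone, 883 in both lists, 1904 in the mTEC-II list alone and 125 in neither. Both lists held 58.3% of the higher peaks, 30.3% of the lower and 61.6% of those not called, and the mTEC-II list alone held 65.4% of the lower and 18.8% of those not called. The lists were drawn from the same libraries as the values tested, so their match with the calls is largely built in and is no separate support. The mTEC-II libraries were deeper, and what this did to the lists was not tested.

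Called peaks also stood side by side. Runs of at least 2 neighbouring peaks called the same way held 657 (29.0%) of the higher peaks in 283 runs and 825 (28.3%) of the lower in 369 runs. Over all tested peaks 7.69% were higher and 9.88% lower, so some like-called neighbours arise by chance, and how many was not tested. The longest run higher in mTEC-III had 6 peaks over 64.6 kb at chr17:35200626-35265226 (mm9), counted for G6bos, the Ly6 family genes Ly6g6c and Ly6g6e, Abhd16a, Csnk2b and D17H6S53E. A run of 5 peaks at chr7:31534275-31576753 (mm9) spans Sbsn, Dmkn and Krtdap, 3 neighbouring genes of keratinocyte differentiation. Its peaks summed to 670.1 in mTEC-III against 115 in mTEC-II (means of n = 2), and each rose by 2.16 to 3.34. Another run of 5 peaks at chr17:42826539-43057084 (mm9) spans Adgrf4, Adgrf2 and Cd2ap, with rises of 0.39 to 3.65. Lower in mTEC-III were runs of 5 peaks at Sema6d (chr2:123914882-124566978, -0.34 to -2.69), an axon guidance gene, at Stfa3 and Casr (chr16:36491696-36562652, -0.50 to -2.12), where Casr is the calcium-sensing receptor gene, and at Snx3 and Nr2e1 (chr10:42242259-42334962, -0.76 to -1.99), a nuclear receptor gene of neural stem cells.

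Within genes, peaks could also go both ways. Of 6535 genes with at least 2 peaks, 218 had at least 2 higher and none lower, 332 at least 2 lower and none higher, and 218 at least 1 in each direction. At least 1 peak was called in 2747 of these genes and at least 2 in 768. What the call rates alone would give was not tested. Dsp, the gene of desmoplakin, which ties keratins to desmosomes, had 5 of 7 peaks higher and 1042 and 1010.4 in mTEC-III, against 684 and 682 in mTEC-II (0.59 ± 0.066 SE, adjusted p = 2.4e-05). Barx1, a homeobox factor gene, had 4 of 5 peaks lower and 175 and 223 in mTEC-III, against 453 and 459.8 in mTEC-II (-1.20 ± 0.11 SE, adjusted p = 4.2e-06). Bcl2l14, an apoptosis facilitator gene, had 3 peaks higher and 3 lower of 12, and its sum was not called, with 800 and 790.2 in mTEC-III, against 908 and 905 in mTEC-II (-0.19 ± 0.069 SE, adjusted p = 0.063), though it was called under other scalings (-0.25, adjusted p = 0.013, with RLE size factors). These 3 were named after their values were seen.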

How the data were processed

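Indexed chromatin immunoprecipitation of H3K4me2 was measured in 4 populations of mTEC, 2 libraries each. The submitters' processing notes name Picard 1.108, bcl2fastq 2.15.0.4 and the mouse build mm9, and no aligner. Per the file headers, the authors counted tags in merged peaks with HOMER and scaled each library's signal to 10000000 tags. Per the file headers, the deposited peak lists of the populations hold a signal per peak and a fold (ratio) over control, which were used only to describe those lists. All values in the 8 libraries lay within 0.1 tags of a multiple of 0.5 tags, so counts of 0.5-tag steps could be recovered for the count tests.

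Of 29472 peaks, 2 on the mitochondrial chromosome were left out. A peak or gene was tested with at least 10 tags per 10000000 in 2 libraries, with limma 3.58.1 (trend, R 4.3.3) on log2(value + 1) over all 8 H3K4me2 libraries, since 2 against 2 alone leaves few degrees of freedom (the smallest exact permutation p is 0.333). Alternatives used edgeR 4.0.16, DESeq2 1.42.0 and voom on recovered counts of 0.5-tag steps, so that each tag counted as 2. RLE size factors and the thinning of mTEC-II used the same steps. Further alternatives were other scalings, pseudocounts, filters, gene sums and sets of libraries.

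The members and the 29 gene lists were chosen with earlier results of these data known. Named genes are the 12 largest called changes each way with a mean of at least 100 tags per 10000000 and no overlap between libraries, the 6 such peaks, up to 4 called members of each list with the largest changes, and the genes of the sort gates; others were named after their values were seen. Promoter sequences are RefSeq's.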

Additional observations from a re-analysis of the deposited data

How the results depend on the processing

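The counts of called peaks and genes moved with the tool and the libraries in the fit. The peaks higher in mTEC-III numbered 2266 as reported, 4270 with edgeR, 5358 with voom, 5096 with the 4 libraries of mTEC-III and mTEC-II alone and 4903 without both mTEC-I libraries. They numbered 3158 with DESeq2, and fewer than reported with equal totals (1959), RLE size factors (2109) and cyclic loess (2081). The peaks lower numbered 2913 as reported, 6471 with edgeR, 5006 with DESeq2, 7045 with voom, 6217 with the 4 libraries and 6101 without mTEC-I. With cyclic loess they numbered 2398. The genes higher numbered 1680 as reported, 2025 with edgeR, 2420 with voom, 3181 with the 4 libraries and 3093 without mTEC-I. They were fewer than reported with DESeq2 (1573), equal totals (1396), RLE size factors (1311) and cyclic loess (1294). The genes lower numbered 1829 as reported, 3590 with edgeR, 2791 with DESeq2, 3852 with voom, 2890 with the 4 libraries and 2883 without mTEC-I. Leaving out 1 library at a time gave 548 to 4867 peaks higher, 354 to 6100 peaks lower, 656 to 3074 genes higher and 655 to 2892 genes lower. Replicates of mTEC-I differed the most (SD of log2 differences 0.835, against 0.264 to 0.384 in the others). They were also the shallowest, with 6461587 tags in replicate 1 and 1702103.5 in replicate 2, against 7926038.5 to 15412132.5 in the others. In these 2 mTEC-I libraries 191 and 1474 peaks stood at 0. The part of depth in this spread was not tested. The strongest peak alone reversed 2 named genes, Hdc at 0.64 and Ccl27a at 0.032; the cause was not tested. The replicate numbers are shared between populations but do not pair the libraries (correlations of -0.0125 to 0.0159), and a replicate block gave 2150 peaks higher, 2771 lower, 1642 genes higher and 1779 lower, with Lypd2 the named gene it moved out of the calls (adjusted p = 0.052). Thinning mTEC-II gave 1680 genes higher and 1818 lower. Low peaks are limited by the shallower mTEC-III libraries.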
